A study of Saccharomyces cerevisiae with 7 samples.

Results

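The autophagy genes are 39 of the 6665 genes listed for each library: 35 carry an ATG name, and VPS30, VPS34, VPS15 and SNX4 complete the set. They were taken by systematic name and sorted by known role into core machinery (21 genes), cargo receptors with their scaffold (8) and membrane factors (10). All 39 were matched in each of the 7 libraries, whose titles all call the cells wild type (WT). The cells were the haploid laboratory yeast Saccharomyces cerevisiae BY4741, grown at 30 °C on synthetic complete (SC) medium. One library came from a lawn that grew for 3 days on SC plates, and 2 came from liquid cultures that had reached saturation. One library each came from early log-phase cells that were filtered, moved to fresh SC medium with 100 nM rapamycin and harvested after 4 h or after 1 h. The 2 log-phase libraries, taken at an OD600 of 0.5, are what these conditions are set against. Rapamycin inhibits the kinase complex TORC1, which represses autophagy in nutrient-rich cells. No library of cells moved to fresh medium without the drug was analysed here, so rapamycin, the filtration and the added time cannot be told apart, and neither can growth on a plate and 3 days of growth.

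In macroautophagy a double membrane grows around cytoplasm, closes as an autophagosome and fuses with the vacuole, where its contents are broken down. The Atg1 kinase complex starts the process, a phosphatidylinositol 3-kinase complex marks the site, Atg9 vesicles and the lipid transfer protein Atg2 supply membrane, and a pair of ubiquitin-like conjugation systems attach Atg8 to it. Cargo receptors tie particular contents, such as mitochondria, peroxisomes or vacuolar enzymes, to Atg8 and to the scaffold Atg11. In growing yeast many of the same proteins serve the cytoplasm-to-vacuole targeting (Cvt) pathway, which delivers aminopeptidase 1 and other enzymes. RNA levels say nothing of whether any of these proteins was active.

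The libraries held between 1019287 (saturated replicate 2) and 9438379 (rapamycin, 1 h) reads on genes, and no autophagy gene was at 0 reads in any of them. The fewest were 5 reads, for 1 gene in log-phase replicate 2, and the median per gene was between 48 and 675 reads per library. The a-type genes MFA1, MFA2, STE2 and BAR1 were present in all libraries, while of the alpha-type genes MFALPHA1 and MFALPHA2 stayed at or below 6.39 TPM and STE3 between 3.59 and 11.8 TPM. LEU2, MET17 and URA3, which BY4741 lacks, were at or below 8.96 TPM. HIS3, listed with them as deleted wholly or in part in this strain, had 97.5 to 600.4 TPM (126 to 2262 reads). Its level does not match a whole deletion in any of the 7 libraries, and which part of the gene the reads cover was not analysed here. TPM is the deposited level per gene length, scaled to a total of 1000000 per library with introns included, and serves here to compare levels between genes. Changes are log2 changes from edgeR with TMM scaling, each with its standard error (SE), and a gene is said to have risen or fallen where its Benjamini-Hochberg adjusted p over 5827 genes was under 0.05. The lawn and both rapamycin times have 1 library each and borrow their spread from the saturated and log-phase pairs, so their tests assume that they vary alike. The labels do not say that replicates were separate cultures, and p-values then measure only the spread between these samples. All values are shares of a library's RNA: fewer cells of one kind and less RNA per cell cannot be told apart.

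Most autophagy genes had more RNA in every condition than in log phase. In the lawn 28 rose and 1 fell of 39, where 20.7% of all genes tested rose and 20.9% fell. In saturated cultures 25 rose and 1 fell, where 27.9% of all genes rose and 25.1% fell. After 4 h of rapamycin 25 rose, against 14.8% of all genes, and after 1 h 20 rose, against 9.18% of all genes. Expressed as a share, 71.8% of the autophagy genes rose in the lawn, 64.1% at saturation, 64.1% at 4 h and 51.3% at 1 h. None fell by the edgeR test at 4 h or 1 h, where 11.5% of all genes fell at each time. At an unadjusted p under 0.05, 1 autophagy gene was lower at each time, and DESeq2 called 0 lower at either time. How many of all genes either measure called lower is not given here. The median log2 change of the 39 genes was 1.63 in the lawn, 1.08 at saturation, 1.47 at 4 h and 1.19 at 1 h, while the median over all genes lay between 0.04 and 0.10. These 4 comparisons share the log-phase libraries, so they are not independent of each other.

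**Figure D1:**
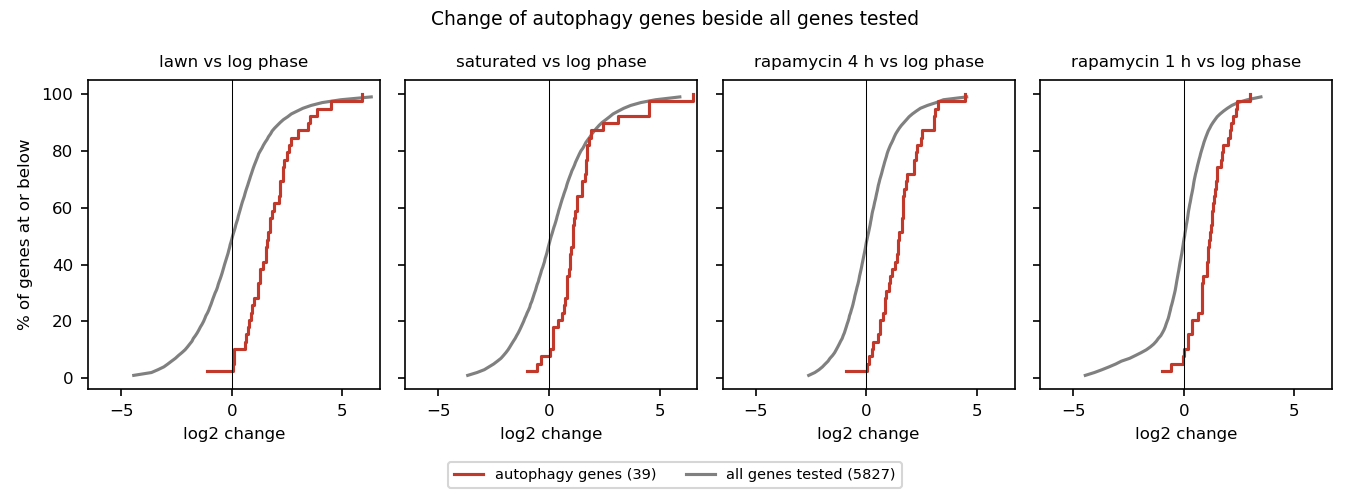
Cumulative share of genes (vertical axis, percent) at or below a given log2 change (horizontal axis) in 4 comparisons with log phase, for the 39 autophagy genes (red steps) and all 5827 genes tested (grey). The red steps lie to the right of the grey curve over most of their range, with medians of 1.63 (lawn), 1.08 (saturated), 1.47 (4 h) and 1.19 (1 h).

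The share of all genes called with a library left out is not given here, so whether all genes lost or gained calls alike is not known. The counts of autophagy genes that rose against log phase were lower without either log-phase library. They were lowest without replicate 1, the deeper of the pair, and the reason was not tested. Without log-phase replicate 1, 18 genes rose in the lawn, 12 at saturation, 12 at 4 h and 7 at 1 h. Without log-phase replicate 2 the counts were 21 in the lawn, 17 at saturation, 20 at 4 h and 14 at 1 h. Leaving out either saturated replicate raised the count at 1 h to 30, since ATG13, ATG17, ATG14, ATG38, ATG11, ATG40, ATG21, ATG23, ATG26 and ATG15 then passed, with adjusted p-values between 2.18e-05 and 0.0258. It also brought ATG17, VPS34, ATG38, ATG21 and SNX4 past the threshold at 4 h (0.00544 to 0.0408), VPS34, ATG38 and ATG16 in the lawn (0.0104 to 0.0424), and the lower level of ATG27 at 4 h and 1 h (0.000538 to 0.00198). At saturation ATG5 (0.00381) and, lower, VPS15 (0.0190) passed without saturated replicate 1, and VPS34 (0.0245), ATG16 (0.0417) and ATG19 (0.0489) without saturated replicate 2. Without log-phase replicate 1 ATG16 passed in the lawn (0.0401), and without log-phase replicate 2 ATG15 passed at 1 h (0.0244). The called changes at saturation that moved by more than 1.5-fold with 1 library left out were those of ATG1 (2.39) and ATG41 (5.87) without saturated replicate 1, and of ATG15 (1.04) without saturated replicate 2. With RLE size factors or no low-count filter, ATG38 passed in the lawn and ATG14, ATG26 and ATG15 passed at 1 h, and at 4 h ATG27 passed, lower, with RLE factors and ATG38 with no filter. Plain library totals added 6 calls in the lawn, 6 at 4 h and 8 at 1 h. No gene called in any of the 6 comparisons changed sign under any alternative run.

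The group of cargo receptors and scaffold had the highest median change, although differences between the groups were not tested. Its median log2 change was 2.58 in the lawn, 1.68 at saturation, 2.38 at 4 h and 1.87 at 1 h. For core machinery the median was 1.39 in the lawn, 0.93 at saturation, 1.17 at 4 h and 1.10 at 1 h. For membrane factors it was 1.56 in the lawn, 1.05 at saturation, 1.34 at 4 h and 1.16 at 1 h. Of the 8 cargo genes 7 rose in the lawn, 7 at saturation, 8 at 4 h and 6 at 1 h. Of the 21 core genes 13 rose in the lawn, 11 at saturation, 11 at 4 h and 9 at 1 h. Of the 10 membrane factors 8 rose in the lawn, 7 at saturation, 6 at 4 h and 5 at 1 h, and 1 fell in the lawn and at saturation. Over all genes tested, 20.7% rose in the lawn, 27.9% at saturation, 14.8% at 4 h and 9.18% at 1 h. The share of all genes that fell was 20.9% in the lawn and 25.1% at saturation.

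**Figure D2:**
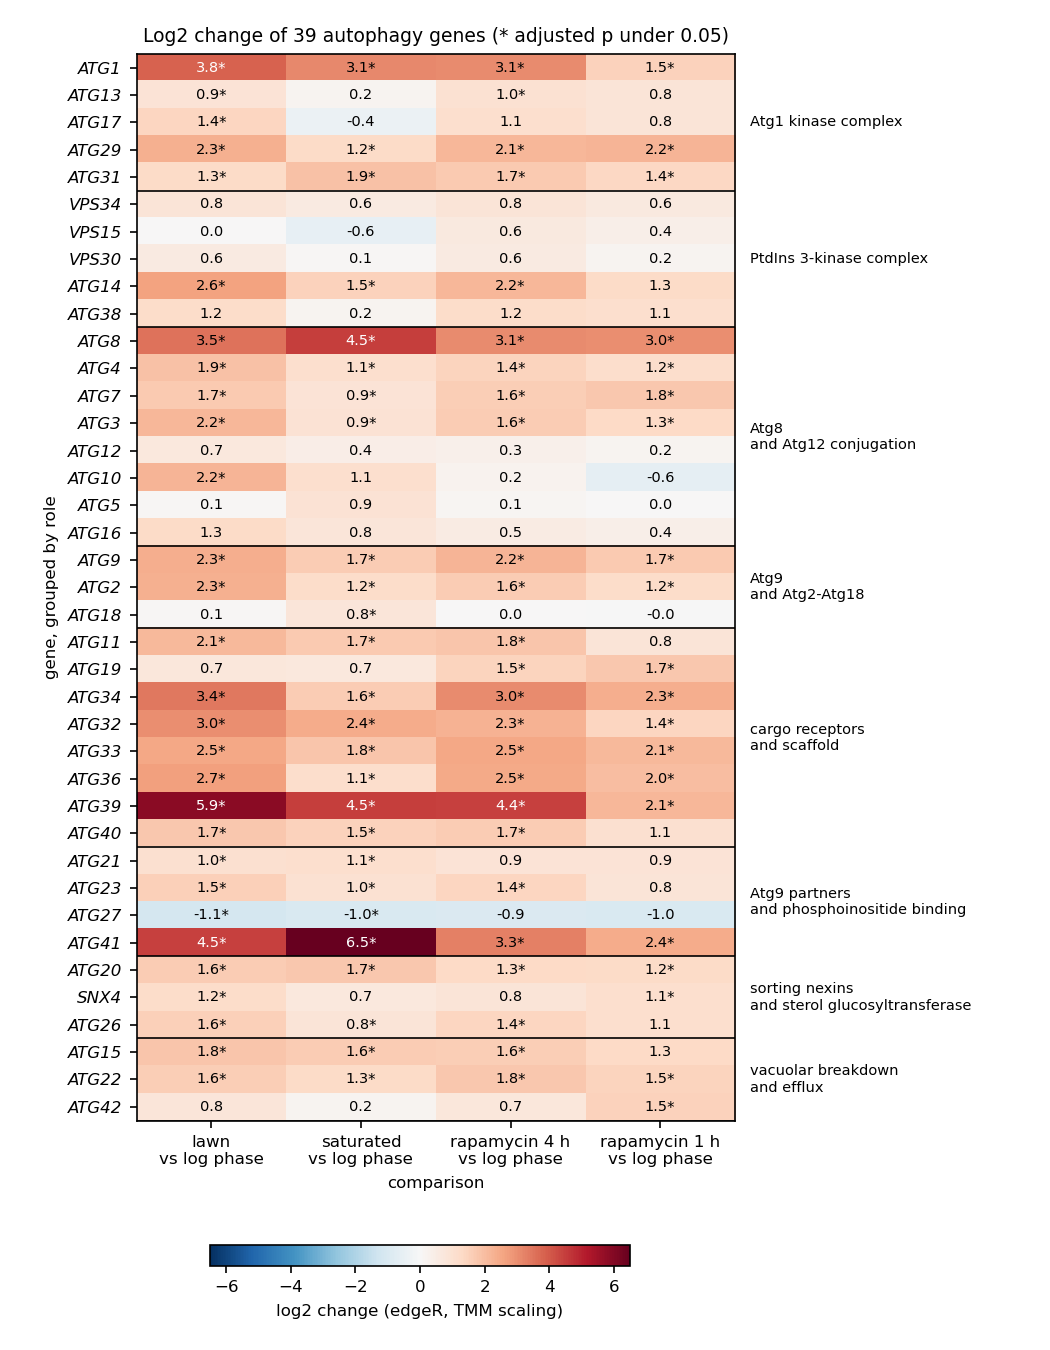
Log2 change against log phase of each of the 39 autophagy genes (rows, grouped by role) in the lawn, saturated cultures and after 4 h and 1 h of rapamycin (columns), with an asterisk where the edgeR adjusted p was under 0.05. The darkest red cells are ATG41 at saturation (6.48) and ATG39 in the lawn (5.89), and ATG27 is the gene with blue cells in all 4 columns.

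A few genes made up much of the RNA. The summed level of the 39 genes was 6215 TPM in the lawn, 6604 and 4862 TPM in the saturated libraries, 4361 TPM at 4 h and 3506.5 TPM at 1 h of rapamycin, against 897 and 1045 TPM in log phase. ATG41 alone held 27.9% of this sum in the lawn, 71.4% and 59.5% at saturation, 17.0% at 4 h and 12.0% at 1 h, against 6.60% and 4.54% in log phase. Without ATG41 the sum was 4481 TPM in the lawn, 1888 and 1969 TPM at saturation, 3618 TPM at 4 h and 3084 TPM at 1 h, against 838 and 997 TPM in log phase. In summed TPM the saturated libraries therefore stood highest with the lawn when ATG41 was counted, and below the lawn and both rapamycin libraries when it was not. These sums carry no TMM scaling. The TMM factors were 0.771 and 0.781 at saturation, 1.29 in the lawn, 1.20 at 4 h and 1.17 at 1 h. How far the order of the sums rests on scaling was not tested. The typical autophagy gene stood at a median of 93.9 TPM in the lawn, 33.8 and 32.4 TPM at saturation, 83.4 TPM at 4 h and 58.2 TPM at 1 h, against 18.8 and 17.7 TPM in log phase. Over all genes listed the median was 50.3 TPM in the lawn, 25.9 and 27.0 TPM at saturation, 52.1 TPM at 4 h and 45.8 TPM at 1 h, against 31.0 and 32.4 TPM in log phase. The typical member was thus below the typical gene in both log-phase libraries and above it in the other 5.

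**Figure D3:**
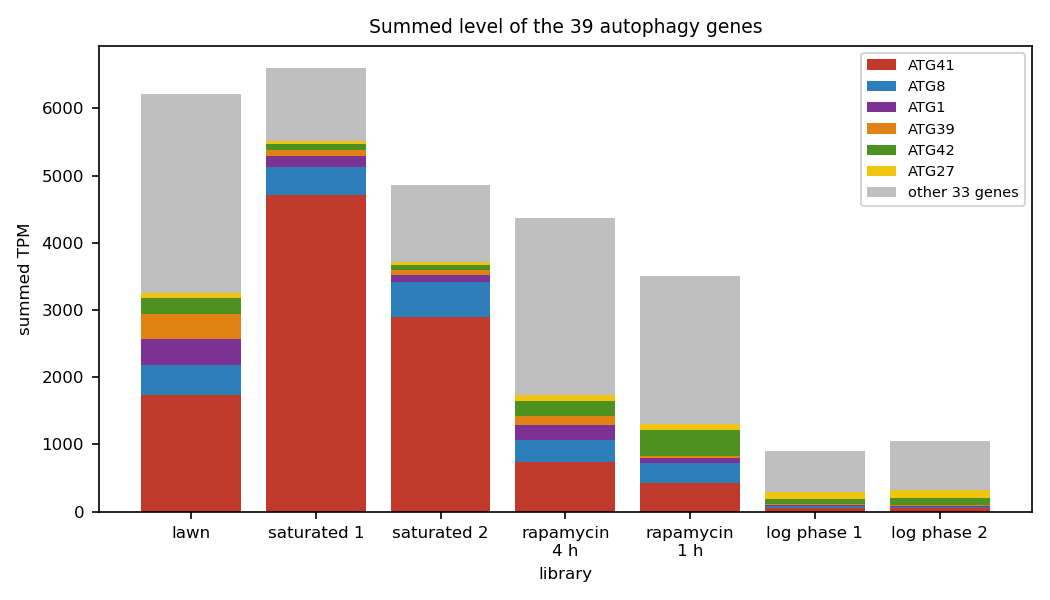
Summed TPM of the 39 autophagy genes (vertical axis) in each library (bars), split into ATG41, ATG8, ATG1, ATG39, ATG42, ATG27 and the other 33 genes. ATG41 fills 71.4% and 59.5% of the saturated bars, and the log-phase bars reach 897 and 1045 TPM.

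Among the genes of the Atg1 kinase complex, which starts autophagy, ATG1 had the greatest change against log phase in 3 of the 4 conditions. ATG1 (YGL180W on chromosome VII, 160065 to 162758, build R64) encodes the kinase itself. ATG1 had 391 TPM in the lawn, 169 and 90.3 TPM in the saturated libraries, 226 TPM at 4 h and 76.9 TPM at 1 h of rapamycin, against 19.8 and 17.7 TPM in log phase. All 5 libraries outside log phase were above both log-phase libraries, and the lawn was the highest. The log2 change of ATG1 was 3.84 ± 0.44 in the lawn, 3.13 ± 0.40 at saturation, 3.05 ± 0.44 at 4 h and 1.49 ± 0.43 at 1 h. ATG13, the regulatory subunit that TORC1 phosphorylates, moved far less. The level of ATG13 was 77.5 TPM in the lawn, 25.4 and 26.9 TPM at saturation, 83.4 TPM at 4 h and 74.5 TPM at 1 h of rapamycin, and 25.5 and 32.2 TPM in log phase. Its saturated values overlapped those of log phase in TPM. As TMM-scaled read levels, the scale of the test, they were 79.31 and 77.89, against 61.7 and 76.22 in log phase. The change of 0.20 ± 0.26 at saturation did not pass. Those of 0.90 ± 0.31 in the lawn and 1.01 ± 0.30 at 4 h did. The TPM of ATG1 divided by that of ATG13 was 5.05 in the lawn, 6.64 and 3.36 at saturation, 2.70 at 4 h and 1.03 at 1 h, against 0.777 and 0.551 in log phase.

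The other 3 genes of the complex encode the Atg17-Atg31-Atg29 scaffold, on which autophagosome formation proteins gather. ATG31 stood at 63.2 TPM in the lawn, at 48.2 and 60.2 TPM in saturated cultures, at 84.8 and 68.2 TPM after 4 h and 1 h of rapamycin, and at 14.7 and 23.4 TPM in log phase. ATG31 rose in all 4 comparisons, by 1.26 ± 0.42 in the lawn, 1.88 ± 0.35 at saturation, 1.70 ± 0.38 at 4 h and 1.37 ± 0.38 at 1 h. Values of ATG29 were 106 TPM (lawn), 25.9 and 30.0 TPM (saturated), 93.1 TPM (rapamycin, 4 h), 100.2 TPM (rapamycin, 1 h) and 14.2 and 15.2 TPM (log phase). ATG29 likewise rose in each, by 2.33 ± 0.35 in the lawn, 1.24 ± 0.32 at saturation, 2.14 ± 0.33 at 4 h and 2.23 ± 0.33 at 1 h. ATG17 had 44.4 TPM in the lawn, 6.15 and 9.20 TPM in the saturated libraries, 35.3 TPM at 4 h and 30.0 TPM at 1 h of rapamycin, against 10.1 and 13.9 TPM in log phase. ATG17 was the lowest of the autophagy genes in both saturated libraries, below its own log-phase values in TPM, and its change of -0.37 ± 0.38 there did not pass, whereas it rose by 1.39 ± 0.40 in the lawn. ATG29 overlaps the gene SET6 on the other strand by 24 bases. SET6 had 295 and 43 reads in the saturated libraries, where ATG29 had 84 and 20. In each log-phase library SET6 had 2 reads, where ATG29 had 63 and 19. In the lawn SET6 had 4 reads, at 4 h 1 and at 1 h 0, where ATG29 had 86, 365 and 525 reads. Whether counting used strand is not stated, and the part of SET6 reads in the ATG29 count was not tested. Without log-phase replicate 1, ATG13, ATG17 and ATG31 (lawn), ATG29 (saturated), ATG13 and ATG31 (4 h) and ATG1 and ATG31 (1 h) no longer passed. Leaving out log-phase replicate 2 ended the calls of ATG13, ATG17 and ATG31 (lawn), ATG29 (saturated), ATG13 (4 h) and ATG1 (1 h). Adjusted p-values of the calls lost in this way lay between 0.0625 and 0.398.

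The phosphatidylinositol 3-kinase complex makes the lipid that marks the growing membrane. In the main fit (edgeR with TMM scaling, all libraries), ATG14 was the one gene of its 5 called in any comparison. The product of ATG14 (YBR128C on chromosome II, 493081 to 494115, build R64) is the subunit that directs this kinase to autophagy. The level of ATG14 was 58.4 TPM in the lawn, 16.4 and 12.1 TPM at saturation, 42.9 TPM at 4 h and 23.3 TPM at 1 h of rapamycin, and 6.16 and 7.43 TPM in log phase. Every value outside log phase was above both log-phase values, and ATG14 was among the 3 lowest of the 39 genes in log phase. It rose by 2.60 ± 0.41 in the lawn, 1.51 ± 0.37 at saturation and 2.16 ± 0.39 at 4 h, and the change of 1.27 ± 0.40 at 1 h did not pass (adjusted p = 0.0529). VPS34 (YLR240W on chromosome XII, 617533 to 620160, build R64) encodes the catalytic subunit. VPS34 stood at 61.1 TPM in the lawn, at 33.8 and 19.8 TPM in saturated cultures, at 60.6 and 52.4 TPM after 4 h and 1 h of rapamycin, and at 23.5 and 23.2 TPM in log phase. In TPM the saturated values of VPS34 straddled those of log phase. As TMM-scaled read levels, the scale of the test, both were above log phase, at 124.9 and 67.84 against 67.23 and 65.25. The log2 changes of VPS34 were 0.85 ± 0.38 in the lawn and 0.58 ± 0.32 at saturation. At 4 h and 1 h they were 0.85 ± 0.37 and 0.62 ± 0.37, and none of these changes passed. VPS15, a protein kinase that holds Vps34, and VPS30, the Beclin homologue, had changes between -0.55 and 0.62 that did not pass either. With plain library totals and with limma on log2(TPM + 1), VPS15 was called lower at saturation. ATG38, which links Atg14 to Vps34, came close at 1.17 ± 0.42 in the lawn (adjusted p = 0.0513) and 1.17 ± 0.38 at 4 h (adjusted p = 0.0523).

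VPS34, VPS15 and VPS30 also serve a second complex that works in vacuolar protein sorting and holds Vps38 where the first holds Atg14. VPS38, singled out after its values were seen, was not called in any comparison, with changes between -0.30 and 0.50 against log phase. The TPM of ATG14 divided by that of VPS38 was 1.62 in the lawn, 0.686 and 0.436 at saturation, 1.62 at 4 h and 0.617 at 1 h, against 0.281 and 0.314 in log phase. All 5 ratios outside log phase were above those of log phase, and the ratio itself was not tested. ATG38 is the one autophagy gene with a listed intron. The intron had 2 reads in the lawn, 1 and 0 in the saturated libraries, 8 at 4 h and 4 at 1 h of rapamycin, against 0 and 0 in log phase. As a share of intron and gene reads together this was 4.08% in the lawn (exact binomial 95% interval 0.498 to 14.0%), 3.42% at 4 h (1.49 to 6.63%) and 1.36% at 1 h (0.372 to 3.45%), and 1.79% in saturated replicate 1 (0.0452 to 9.55%). The 0 reads allow a share of up to 3.49% in log-phase replicate 1, 15.8% in log-phase replicate 2 and 33.3% in saturated replicate 2 when 3 reads are taken as the limit, and up to 4.2%, 17.6% and 33.6% by the exact binomial interval. Both cover counting error only, and the intron share was not tested between conditions. The call of ATG14 (saturated) did not hold without log-phase replicate 1. ATG14 (saturated) missed the threshold once saturated replicate 1 was left out. Those calls then had adjusted p-values between 0.102 and 0.108.

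The ubiquitin-like protein Atg8 is attached to the growing membrane and stays inside the closed autophagosome. ATG8 (YBL078C on chromosome II, 80378 to 80731, build R64) ranked 2 or 3 by TPM among the 39 genes in every library outside log phase, against 9 and 16 in the log-phase libraries. Values of ATG8 were 440.3 TPM (lawn), 411 and 529.8 TPM (saturated), 318 TPM (rapamycin, 4 h), 306 TPM (rapamycin, 1 h) and 27.4 and 23.2 TPM (log phase). In TPM the 5 values outside log phase ran from 306 to 529.8, far above both log-phase values. As TMM-scaled read levels, the scale of the test, they were further apart. ATG8 then had 115.9 in the lawn, 204.8 and 245 at saturation, 84.3 at 4 h and 80.12 at 1 h. The log-phase levels on this scale were 10.57 and 8.773. ATG8 rose by 3.55 ± 0.33 in the lawn, 4.50 ± 0.31 at saturation, 3.09 ± 0.33 at 4 h and 3.02 ± 0.32 at 1 h, with adjusted p = 3.83e-05 at saturation (edgeR, Benjamini-Hochberg). The genes that process and activate Atg8 rose as well in all 4 comparisons, by less. ATG7 had 62.6 TPM in the lawn, 16.7 and 23.9 TPM in the saturated libraries, 58.4 TPM at 4 h and 64.7 TPM at 1 h of rapamycin, against 11.0 and 16.0 TPM in log phase. ATG7, the activating enzyme, rose by 1.71 ± 0.35 in the lawn, 0.91 ± 0.31 at saturation, 1.62 ± 0.34 at 4 h and 1.75 ± 0.34 at 1 h. ATG4, the protease that trims Atg8 and later frees it, rose by between 1.08 (saturated) and 1.90 (lawn), and ATG3, the enzyme that conjugates it, by between 0.94 (saturated) and 2.18 (lawn).

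The companion system joins Atg12 to Atg5, and Atg16 binds the pair to form the complex that completes Atg8 conjugation. ATG12, ATG5 and ATG16 did not pass in any of the 4 comparisons by the test with all libraries, with log2 changes between 0.01 and 1.25. ATG5 at saturation passed with RLE size factors, with no low-count filter, with the replicate block and with the 4 log-phase and saturated libraries alone. The level of ATG12 was 42.5 TPM in the lawn, 23.3 and 12.0 TPM at saturation, 33.0 TPM at 4 h and 30.8 TPM at 1 h of rapamycin, and 20.4 and 15.5 TPM in log phase. ATG12 had one saturated library above and one below the log-phase values. The TPM of ATG8 divided by that of ATG12 was 10.4 in the lawn, 17.7 and 44.1 at saturation, 9.63 at 4 h and 9.92 at 1 h, against 1.34 and 1.49 in log phase. ATG10, the enzyme that conjugates Atg12, rose in the lawn by 2.19 ± 0.65 and was not called in the other 3 comparisons. ATG10 had the fewest reads of the 39 genes in every library, with 21 reads in the lawn, 18 and 6 in the saturated libraries, 26 at 4 h, 20 at 1 h and 17 and 5 in log phase. The SE of these 4 genes was between 0.36 and 0.66, larger than for most others, and the difference between the pair of systems was not tested. With log-phase replicate 1 left out, the threshold was missed by ATG10 (lawn), ATG4, ATG7 and ATG3 (saturated), ATG4, ATG7 and ATG3 (4 h) and ATG4, ATG7 and ATG3 (1 h). Without log-phase replicate 2, ATG10 (lawn), ATG4, ATG7 and ATG3 (saturated), ATG4 (4 h) and ATG4 and ATG3 (1 h) no longer passed. Leaving out saturated replicate 2 ended the calls of ATG4, ATG7 and ATG3 (saturated). Those calls then had adjusted p-values between 0.0548 and 0.318.

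Atg9 is the membrane protein of the vesicles that seed the autophagosome, and Atg2 with the lipid-binding Atg18 feeds lipid into it. ATG9 rose by 2.34 ± 0.33 in the lawn, 1.66 ± 0.29 at saturation, 2.23 ± 0.33 at 4 h and 1.70 ± 0.33 at 1 h. ATG2 stood at 126 TPM in the lawn, at 30.1 and 32.4 TPM in saturated cultures, at 77.6 and 57.4 TPM after 4 h and 1 h of rapamycin, and at 15.6 and 19.0 TPM in log phase. ATG2 was above both log-phase values in every other library and rose by 2.33 ± 0.31 in the lawn, 1.19 ± 0.27 at saturation, 1.65 ± 0.31 at 4 h and 1.19 ± 0.31 at 1 h. ATG18 differed from both: it stood between 32.8 and 42.2 TPM outside log phase, against 23.7 and 30.0 TPM in log phase. It rose at saturation alone, by 0.80 ± 0.28, with 0.10 ± 0.35 in the lawn, 0.05 ± 0.32 at 4 h and -0.03 ± 0.32 at 1 h. The calls of ATG2 and ATG18 (saturated), ATG2 (4 h) and ATG9 and ATG2 (1 h) did not hold without log-phase replicate 1. ATG18 (saturated) and ATG2 (1 h) missed the threshold once log-phase replicate 2 was left out. With saturated replicate 2 left out, the threshold was missed by ATG18 (saturated). Those calls then had adjusted p-values between 0.0757 and 0.311.

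**Figure D4:**
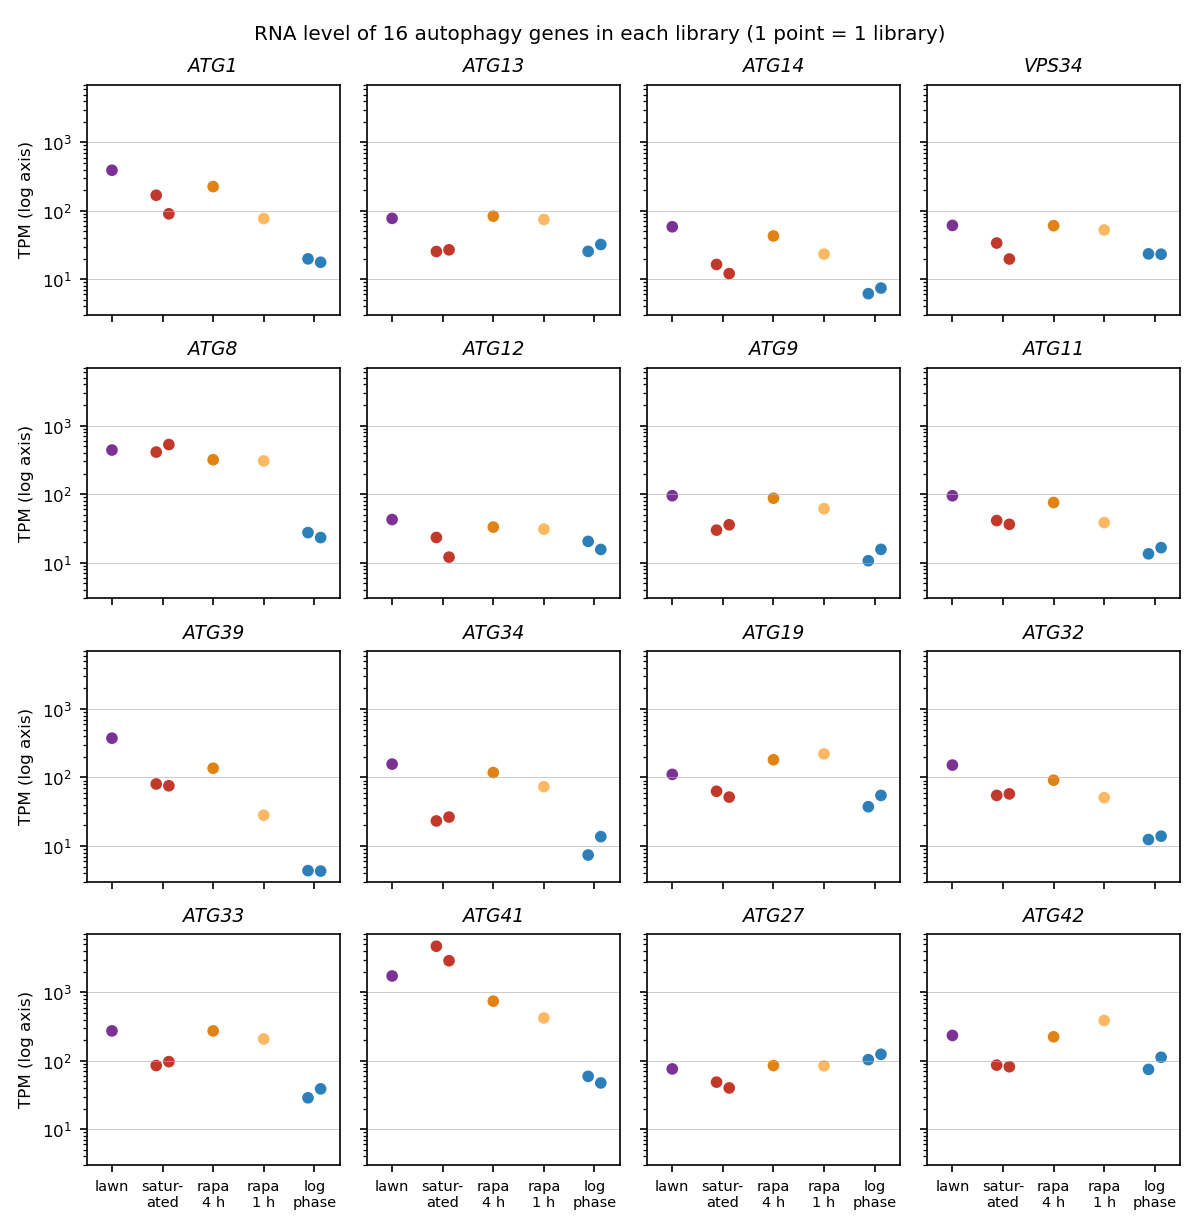
TPM on a log axis of 16 autophagy genes in each library, 1 point per library, with the lawn, saturated, rapamycin 4 h, rapamycin 1 h and log-phase groups from left to right. ATG39 runs from 4.36 and 4.29 TPM in log phase up to 375 TPM in the lawn, while VPS34 and ATG12 stay within a narrow range and ATG27 is highest in log phase.

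Cargo receptors rose widely, and ATG39, the receptor for the nuclear envelope and the endoplasmic reticulum around it, had the highest change of any autophagy gene in the lawn and at 4 h. ATG39 (YLR312C on chromosome XII, 757637 to 758833, build R64) was the lowest of the 39 genes in both log-phase libraries. ATG39 had 375 TPM in the lawn, 80.3 and 75.5 TPM in the saturated libraries, 136 TPM at 4 h and 28.0 TPM at 1 h of rapamycin, against 4.36 and 4.29 TPM in log phase. Its log-phase pair agreed closely in TPM, on 36 and 10 reads, and the lawn stood above every other library. ATG39 rose by 5.89 ± 0.34 in the lawn, 4.50 ± 0.31 at saturation, 4.44 ± 0.33 at 4 h and 2.14 ± 0.34 at 1 h. The level of ATG32 was 152 TPM in the lawn, 54.6 and 57.5 TPM at saturation, 91.2 TPM at 4 h and 50.7 TPM at 1 h of rapamycin, and 12.4 and 13.9 TPM in log phase. ATG32, the receptor for mitochondria, was above log phase in all 5 libraries and rose by 3.00 ± 0.30 in the lawn, 2.43 ± 0.27 at saturation, 2.28 ± 0.30 at 4 h and 1.42 ± 0.30 at 1 h. ATG33 stood at 273 TPM in the lawn, at 85.3 and 97.2 TPM in saturated cultures, at 273 and 208 TPM after 4 h and 1 h of rapamycin, and at 28.8 and 38.9 TPM in log phase. ATG33, a mitochondrial outer membrane protein needed for mitophagy, rose by 2.51 ± 0.32 in the lawn, 1.78 ± 0.29 at saturation, 2.52 ± 0.31 at 4 h and 2.11 ± 0.31 at 1 h, with its lawn and 4 h values nearly equal. Values of ATG36 were 125 TPM (lawn), 22.0 and 26.2 TPM (saturated), 109 TPM (rapamycin, 4 h), 79.2 TPM (rapamycin, 1 h) and 11.5 and 16.9 TPM (log phase). ATG36, the receptor for peroxisomes, rose by 2.66 ± 0.35 in the lawn, 1.13 ± 0.33 at saturation, 2.48 ± 0.34 at 4 h and 1.99 ± 0.34 at 1 h.

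ATG34 and ATG19 are related receptors that lie next to each other, 1774 bases apart with no gene listed between them (YOL083W on chromosome XV, 165714 to 166952, and YOL082W on chromosome XV, 168727 to 169974, build R64). Atg19 carries aminopeptidase 1 in the Cvt pathway, and Atg34 carries alpha-mannosidase in starved cells. ATG34 had 157 TPM in the lawn, 23.1 and 26.4 TPM in the saturated libraries, 118 TPM at 4 h and 73.3 TPM at 1 h of rapamycin, against 7.36 and 13.7 TPM in log phase. ATG34 rose by 3.45 ± 0.38 in the lawn, 1.65 ± 0.35 at saturation, 3.05 ± 0.37 at 4 h and 2.35 ± 0.37 at 1 h, and its saturated values were the lowest outside log phase. The level of ATG19 was 111 TPM in the lawn, 62.8 and 51.6 TPM at saturation, 181 TPM at 4 h and 221 TPM at 1 h of rapamycin, and 37.4 and 54.7 TPM in log phase. ATG19 rose at 4 h by 1.47 ± 0.34 and at 1 h by 1.74 ± 0.34, and its changes of 0.75 ± 0.35 in the lawn and 0.68 ± 0.30 at saturation did not pass. The TPM of ATG34 divided by that of ATG19 was 1.41 in the lawn, 0.369 and 0.511 at saturation, 0.649 at 4 h and 0.332 at 1 h, against 0.197 and 0.250 in log phase. ATG34 was above ATG19 in the lawn and below it in the other 6 libraries.

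ATG11 encodes the scaffold that gathers receptors and Atg1, and ATG40 a receptor for the endoplasmic reticulum. ATG11 rose by 2.13 ± 0.32 in the lawn, 1.72 ± 0.28 at saturation and 1.81 ± 0.31 at 4 h, and its change of 0.82 ± 0.32 at 1 h did not pass. ATG40 rose by 1.75 ± 0.42, 1.50 ± 0.36 and 1.67 ± 0.39 in the same 3 conditions and had 1.05 ± 0.40 at 1 h, which did not pass. Without log-phase replicate 1, ATG40 (lawn), ATG34, ATG36 and ATG40 (saturated), ATG19 and ATG40 (4 h) and ATG19 and ATG32 (1 h) no longer passed. Leaving out log-phase replicate 2 ended the call of ATG32 (1 h). The adjusted p of these calls then ran between 0.0504 and 0.235.

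ATG41 (YPL250C on chromosome XVI, 74309 to 74719, build R64) encodes a partner of Atg9 needed for full autophagy, and it was the most abundant autophagy gene in every library outside log phase. ATG41 stood at 1734 TPM in the lawn, at 4716 and 2893 TPM in saturated cultures, at 743 and 422 TPM after 4 h and 1 h of rapamycin, and at 59.2 and 47.4 TPM in log phase. No other gene of the set came near its level at saturation, and the lawn lay between the saturated and the rapamycin libraries. ATG41 rose by 4.47 ± 0.46 in the lawn, 6.48 ± 0.46 at saturation, 3.25 ± 0.44 at 4 h and 2.42 ± 0.44 at 1 h, with adjusted p = 3.92e-05 at saturation (edgeR, Benjamini-Hochberg). ATG27 (YJL178C on chromosome X, 89282 to 90097, build R64), which encodes a membrane protein that travels with Atg9, went the other way. Values of ATG27 were 76.0 TPM (lawn), 48.7 and 40.1 TPM (saturated), 85.1 TPM (rapamycin, 4 h), 84.2 TPM (rapamycin, 1 h) and 104 and 124 TPM (log phase). The most abundant autophagy gene in log phase, ATG27 was lower in all 5 other libraries. It was the only one of the 39 called lower than log phase in the edgeR fit of all libraries with TMM scaling. It fell in the lawn (-1.12 ± 0.35) and at saturation (-0.99 ± 0.28), and the changes of -0.94 ± 0.33 at 4 h and -0.98 ± 0.33 at 1 h did not pass (adjusted p = 0.0647 and 0.0682). ATG27 held 1.22% of the summed TPM in the lawn, 0.738% and 0.824% at saturation, 1.95% at 4 h and 2.40% at 1 h, against 11.6% and 11.9% in log phase. ATG23, another protein that moves with Atg9, rose by 1.55 ± 0.38 in the lawn, 1.01 ± 0.33 at saturation and 1.42 ± 0.36 at 4 h. ATG21, a lipid-binding relative of Atg18, rose by 1.02 ± 0.34 in the lawn and 1.08 ± 0.29 at saturation. The fall of ATG27 in the lawn also missed the threshold with plain library totals and with DESeq2. The calls of ATG21, ATG23 and ATG27 (lawn), ATG23 and ATG27 (saturated) and ATG23 (4 h) did not hold without log-phase replicate 1. ATG21, ATG23 and ATG27 (lawn), ATG21, ATG23 and ATG27 (saturated) and ATG23 (4 h) missed the threshold once log-phase replicate 2 was left out. With saturated replicate 1 left out, the threshold was missed by ATG23 (saturated). The adjusted p of these calls then ran between 0.0523 and 0.424.

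ATG20 and SNX4 encode sorting nexins that pair with each other and retrieve proteins from endosomes. ATG20 had 115 TPM in the lawn, 69.8 and 64.5 TPM in the saturated libraries, 90.6 TPM at 4 h and 87.5 TPM at 1 h of rapamycin, against 23.7 and 27.7 TPM in log phase. ATG20 was well above log phase in all 5 libraries and rose by 1.63 ± 0.31 in the lawn, 1.73 ± 0.27 at saturation, 1.30 ± 0.30 at 4 h and 1.23 ± 0.30 at 1 h. SNX4 rose by 1.20 ± 0.32 in the lawn and 1.08 ± 0.31 at 1 h, and had 0.70 ± 0.27 at saturation and 0.82 ± 0.31 at 4 h, which did not pass. ATG26, a sterol glucosyltransferase needed for peroxisome turnover in other yeasts, rose by 1.56 ± 0.34 in the lawn, 0.82 ± 0.29 at saturation and 1.38 ± 0.34 at 4 h. Without log-phase replicate 1, SNX4 and ATG26 (lawn), ATG26 (saturated), ATG20 and ATG26 (4 h) and ATG20 and SNX4 (1 h) no longer passed. Leaving out log-phase replicate 2 ended the calls of SNX4 (lawn), ATG26 (saturated), ATG20 and ATG26 (4 h) and ATG20 and SNX4 (1 h). The call of ATG26 (saturated) did not hold without saturated replicate 2. The adjusted p of these calls then ran between 0.0634 and 0.326.

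In the vacuole, the lipase Atg15 opens the inner membrane of the delivered body, the carboxypeptidase Atg42 takes part in breakdown and Atg22 exports amino acids. ATG15 rose by 1.80 ± 0.42 in the lawn, 1.63 ± 0.37 at saturation and 1.62 ± 0.41 at 4 h, and had 1.30 ± 0.41 at 1 h (adjusted p = 0.0555). ATG22 rose in all 4 comparisons, by 1.58 ± 0.35 in the lawn, 1.25 ± 0.30 at saturation, 1.77 ± 0.34 at 4 h and 1.45 ± 0.34 at 1 h. The level of ATG42 was 234 TPM in the lawn, 86.4 and 81.9 TPM at saturation, 224 TPM at 4 h and 388 TPM at 1 h of rapamycin, and 74.8 and 112 TPM in log phase. ATG42 was highest at 1 h, the one comparison with log phase in which it rose (1.52 ± 0.35), and its saturated values overlapped those of log phase. ATG15 and ATG22 (lawn), ATG22 (saturated), ATG15 and ATG22 (4 h) and ATG22 and ATG42 (1 h) missed the threshold once log-phase replicate 1 was left out. Those calls then had adjusted p-values between 0.0506 and 0.199.

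Set directly against each other, the later and the earlier rapamycin library differed in 1 autophagy gene of 39, where 5.29% of all genes were higher at 4 h and 0.978% lower. ATG39 was higher at 4 h, with 136 TPM at 4 h and 28.0 TPM at 1 h, a log2 change of 2.30 ± 0.36 (adjusted p = 0.0113, edgeR with Benjamini-Hochberg adjustment). It passed under every alternative run for this comparison. ATG1 came next, with 226 TPM at 4 h and 76.9 TPM at 1 h, and its change of 1.57 ± 0.52 did not pass (adjusted p = 0.121). ATG1 passed without saturated replicate 1 (1.43, adjusted p = 0.00343) and without saturated replicate 2 (1.43, adjusted p = 0.00439), as did ATG11, whose change of 0.99 ± 0.37 had adjusted p = 0.166 with all libraries. The adjusted p of ATG11 was 0.0469 without saturated replicate 1 and 0.0496 without saturated replicate 2. ATG8, ATG13 and VPS34 differed by 0.07 ± 0.36, 0.18 ± 0.35 and 0.22 ± 0.43, which did not pass. ATG42 had the lowest change of the set, -0.78 ± 0.41, which did not pass either. The median of the 39 genes was 0.31, beside 0.14 over all genes. At an unadjusted p under 0.05, 4 autophagy genes were higher and 0 lower at 4 h, and DESeq2 called 1 higher and 0 lower. The share of all genes by either measure is not given here.

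Between the lawn and the saturated cultures, 5 autophagy genes were higher in the lawn and 1 was lower, where 5.05% of all genes were higher and 7.14% lower. The genes higher in the lawn were ATG34 (1.80 ± 0.37), ATG17 (1.76 ± 0.43), ATG36 (1.53 ± 0.35), ATG39 (1.39 ± 0.29) and ATG2 (1.15 ± 0.32), that is, 3 cargo receptors, 1 scaffold subunit of the Atg1 complex and the lipid transfer protein. ATG41 was lower, with 1734 TPM in the lawn and 4716 and 2893 TPM at saturation, a log2 change of -2.02 ± 0.49 (adjusted p = 0.0296). ATG8 had -0.95 ± 0.33, ATG1 0.70 ± 0.44, ATG13 0.70 ± 0.31 and VPS34 0.27 ± 0.39, which did not pass. The call of ATG2 was lost without log-phase replicate 1 (adjusted p = 0.116) and without log-phase replicate 2 (adjusted p = 0.100). Without saturated replicate 1, 7 genes were higher and 3 lower, and without saturated replicate 2, 9 were higher and 1 lower. This contrast depended on scaling most of all: with plain library totals in place of TMM, 23 genes were higher and 0 lower. The median over all genes was -0.05 with TMM and 0.69 with plain totals, and that of the 39 genes was 0.57 with TMM and 1.30 with plain totals. The TMM factors were 1.29 for the lawn and 0.771 and 0.781 for the saturated libraries.

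**Figure D5:**
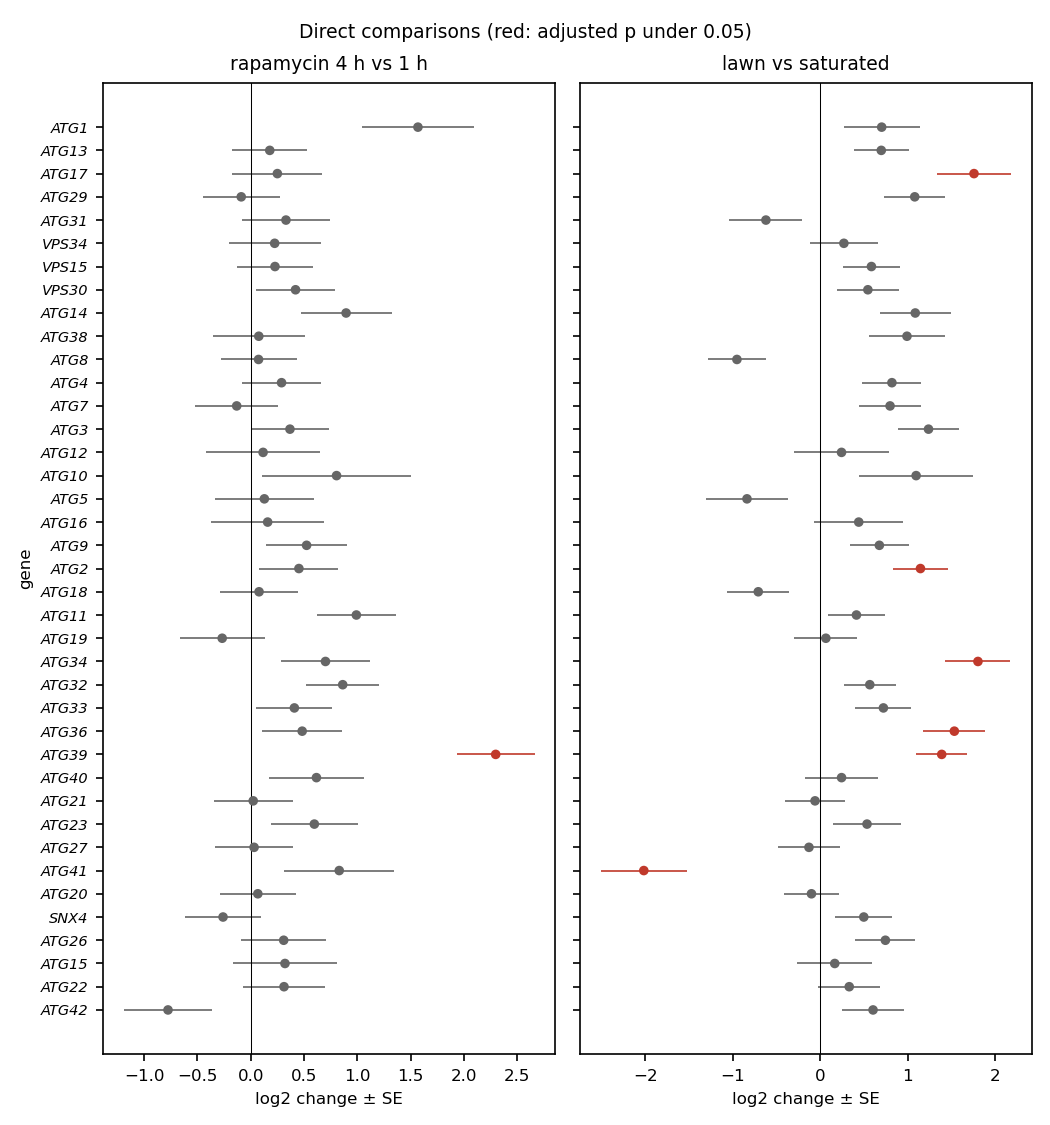
Log2 change with its SE (horizontal axis, edgeR) of the 39 autophagy genes (rows) between 4 h and 1 h of rapamycin (left) and between the lawn and the saturated cultures (right), with red points where the adjusted p was under 0.05. ATG39 is red in both panels (2.30 and 1.39) and ATG41 is the red point left of 0 on the right (-2.02).

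Another 39 genes around the pathway, in 4 lists, were read from the same fit. The Cvt cargo enzymes are delivered to the vacuole by Atg19 and Atg34. Of 4, 1 rose in the lawn, 3 at saturation, 2 at 4 h and 4 at 1 h, where in the same order 20.7%, 27.9%, 14.8% and 9.18% of all genes rose. APE1, the aminopeptidase 1 gene, had 148 TPM in the lawn, 169.8 and 126 TPM at saturation, 365 TPM at 4 h and 1458 TPM at 1 h, against 59.1 and 112 TPM in log phase. It was far higher at 1 h than in any other library, with a log2 change of 3.56 ± 0.45, and its calls at saturation (1.15 ± 0.38) and at 4 h (1.58 ± 0.44) were lost without log-phase replicate 1 (0.77 and 1.19). At saturation the call was also lost without saturated replicate 1 (0.72), with plain library totals (0.84) and with limma (0.84). AMS1, alpha-mannosidase, rose by 3.68 ± 0.60 in the lawn, 2.62 ± 0.53 at saturation, 3.78 ± 0.60 at 4 h and 3.25 ± 0.59 at 1 h. APE4 rose at 1 h (1.33 ± 0.32) and at saturation (1.25 ± 0.28), and its call at saturation was lost without log-phase replicate 1 (1.10). LAP3, a cytosolic cysteine peptidase, rose at 1 h (2.50 ± 0.37) and was lower at 4 h than at 1 h (-2.24 ± 0.46, adjusted p = 0.0248).

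Of 15 genes of the Rab, SNARE and HOPS machinery that fuses autophagosomes with the vacuole, 1 rose and 1 fell in the lawn, 1 rose and 3 fell at saturation, and 1 rose at 4 h and at 1 h. Each count of genes that rose is 6.67% of the list, below the share of all genes in each comparison (20.7% in the lawn, 27.9% at saturation, 14.8% at 4 h and 9.18% at 1 h), and 25.1% of all genes fell at saturation. YPT7, the vacuolar Rab, fell by 1.29 in the lawn and by 1.15 at saturation on the log2 scale (SE 0.34 and 0.26), and the lawn call was lost without either log-phase library (-1.40 and -1.24) and with plain library totals (-0.86). VPS18 (-1.34 ± 0.31) and VPS11 (-1.02 ± 0.26), subunits of the HOPS tether, were lower at saturation, and VPS18 was higher in the lawn than at saturation (1.34 ± 0.37). VTI1, a SNARE, rose at 1 h (1.22 ± 0.31), and MON1, part of the exchange factor of Ypt7, in the lawn (0.93 ± 0.33) and at 4 h (1.02 ± 0.31). The call of VPS11 was lost without log-phase replicate 1 (-0.93). Without either log-phase library the calls of VTI1 (1.21 and 1.19) and of MON1 in the lawn (1.01 and 0.80) and at 4 h (1.08 and 0.90) were lost as well. MON1 also missed the threshold with the replicate block (0.83 in the lawn, adjusted p = 0.0998, and 0.91 at 4 h, adjusted p = 0.0701) and with DESeq2 (adjusted p = 0.164 and 0.187), and VPS18 between the lawn and saturation with DESeq2 (1.38, adjusted p = 0.0665). Of 9 partners of selective autophagy, 2 rose in the lawn, at saturation and at 4 h and 0 at 1 h, while 2 fell at saturation. In the lawn and at saturation the 22.2% that rose is near or below the share of all genes (20.7% and 27.9%), and 14.8% of all genes rose at 4 h. NVJ1, which joins nucleus and vacuole, rose by 1.76 ± 0.33 in the lawn, 2.22 ± 0.29 at saturation and 1.09 ± 0.33 at 4 h, and PEX3, the peroxisomal anchor of Atg36, by 1.49 ± 0.30, 1.67 ± 0.26 and 1.07 ± 0.30. VAC8, which encodes an armadillo-repeat protein of the vacuole, was lower at saturation (-1.28 ± 0.29), and DNM1, which divides mitochondria, was higher in the lawn than at saturation (1.22 ± 0.33). The calls at 4 h of NVJ1 (1.23 and 0.92) and PEX3 (0.94 and 1.12) were lost without log-phase replicate 1 or 2, and that of PEX3 in the lawn without replicate 1 (1.37). DNM1 missed the threshold without log-phase replicate 1 (1.21), log-phase replicate 2 (1.22) or saturated replicate 1 (0.94). DESeq2 did not call NVJ1 (adjusted p = 0.119) or PEX3 (0.0913) at 4 h, or DNM1 between the lawn and saturation (0.0553).

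Of 11 regulators reported to act on ATG genes, 4 rose in the lawn, 4 at saturation, 3 at 4 h and 0 at 1 h, and none fell against log phase. As shares, 36.4% rose in the lawn and at saturation and 27.3% at 4 h, where 20.7%, 27.9% and 14.8% of all genes rose. At 1 h 9.18% of all genes rose, so 0 of 11 is near that share. Of all genes, 20.9% fell in the lawn, 25.1% at saturation and 11.5% at each rapamycin time. GAT1 and GLN3, activators of nitrogen-repressed genes, rose by 1.08 ± 0.33 and 1.76 ± 0.34 in the lawn, 2.73 ± 0.29 and 2.43 ± 0.30 at saturation and 1.60 ± 0.32 and 1.28 ± 0.34 at 4 h. GAT1 was lower in the lawn than at saturation (-1.65 ± 0.36, adjusted p = 0.0199), and missed the threshold with plain library totals (-0.92, adjusted p = 0.0685). RPH1, a histone demethylase known to repress ATG genes, also rose, by 2.17 ± 0.31 in the lawn, 1.83 ± 0.28 at saturation and 1.67 ± 0.31 at 4 h, and was higher at 4 h than at 1 h (1.61 ± 0.38, adjusted p = 0.0403). Without log-phase replicate 1 or 2, the calls of GAT1 in the lawn (1.29 and 0.84), of GLN3 at 4 h (1.32 and 1.19) and of RPH1 between 4 h and 1 h (1.61 and 1.59) were lost. GAT1 at 4 h was lost without log-phase replicate 2 (1.38), and RPH1 at 4 h without log-phase replicate 1 (1.49). UME6 and PHO23, repressors of ATG8 and ATG9 in growing cells and likewise singled out afterwards, were not called in any comparison.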

How the data were processed

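Per the labels' protocols, ribosomal RNA was removed before RNA was broken by alkali into short fragments that were sequenced as single reads. The submitters' processing notes name STAR 2.4, cutadapt 1.8 and the build R64 (sacCer3). How reads were counted, with what annotation and strand setting, is not stated in those notes.

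Per the file headers, the authors deposited for each library the read count and the TPM of 6665 genes and of 300 introns. The counts are whole numbers and were taken as raw, and the deposited TPM of genes and introns sum to 1000000. The 39 members were matched by locus tag to a RefSeq table of R64. No sequence was used here.

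Counts were tested with edgeR 4.0.16 (R 4.3.3) by its quasi-likelihood test, two-sided, in one fit of 7 libraries in 5 groups without covariates, with TMM scaling, edgeR's low-count filter and Benjamini-Hochberg adjustment at 0.05. All 39 members passed the filter, and 5827 genes were tested. The fit had 2 residual and 6.94 prior degrees of freedom. The SE is the log2 change divided by the square root of F, without sign. The code was tested on simulated data. TPM served to describe levels. Alternatives were other scaling, DESeq2 1.42.0, no filter, a replicate block, each replicate left out and, for saturated cultures, the 4 libraries alone and limma 3.58.1 on log2(TPM + 1). Replicates of a group differed by more than sampling noise, with chi-square per degree of freedom of 15.7 in log phase and 34.7 at saturation.

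The members, roles and lists were chosen with earlier results of these data known. Per-library values follow a rule: up to 8 genes risen and 8 fallen with the largest changes per comparison, and always ATG1, ATG8, ATG13 and VPS34. From each other list up to 3 genes called per comparison were named. Values of the remaining members were added after they were seen.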

Additional observations from a re-analysis of the deposited data

Results flagged for a closer look

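ATG39 differed between the rapamycin times. With 136 TPM at 4 h and 28.0 TPM at 1 h, its log2 change between them was 2.30 ± 0.36 (adjusted p = 0.0113, edgeR with Benjamini-Hochberg adjustment over 5827 genes), which is the difference between its changes against log phase of 4.44 ± 0.33 at 4 h and 2.14 ± 0.34 at 1 h. Each time has 1 library.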

How the results depend on the processing

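The direction of every called gene was kept under all alternatives run. The counts of called genes were not, and the share of all genes called under each alternative is not given here. With each replicate left out in turn, the genes that rose numbered 18 to 31 in the lawn, 12 to 24 at saturation, 12 to 30 at 4 h and 7 to 30 at 1 h, 1 to 3 were higher at 4 h than at 1 h, and 4 to 9 were higher in the lawn than at saturation. Those that fell numbered 0 to 1 in the lawn, 0 to 2 at saturation, 0 to 1 at 4 h and 0 to 1 at 1 h, and 1 to 3 were lower in the lawn than at saturation. Plain library totals gave 23 higher and 0 lower in the lawn than at saturation, and 0 fallen in the lawn. At saturation they gave 2 fallen, ATG27 and VPS15, and limma on log2(TPM + 1) gave the same 2. DESeq2 gave 0 fallen in the lawn, and RLE size factors 1 fallen at 4 h. Plain totals moved the median of all genes to 0.47 in the lawn, -0.21 at saturation, 0.39 at 4 h and 0.32 at 1 h. DESeq2 ended the calls of ATG13, ATG17, ATG31, ATG10, ATG21 and ATG27 in the lawn, of ATG7, ATG3, ATG18, ATG36 and ATG23 at saturation, of ATG13 and ATG23 at 4 h, and of ATG31, ATG4, ATG3 and SNX4 at 1 h. Plain totals ended those of ATG4, ATG7, ATG3, ATG18, ATG36, ATG23 and ATG26 at saturation, as did limma together with ATG21. Plain totals also ended the calls of ATG27 against log phase and of ATG41 against saturation in the lawn, and DESeq2 that of ATG17 against saturation. Except where scaling or fewer samples is the alternative itself, the cause was not tested.

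Values that changed sign were not called with all libraries. ATG13 at saturation was -0.11 with plain totals and -0.13 with limma, and -0.01 to 0.26 with a replicate left out. With a replicate left out, VPS34 was -0.11 to 0.69 at saturation and -0.03 to 0.77 between the lawn and saturation. ATG8 between 4 h and 1 h was -0.04 with RLE factors, -0.04 with DESeq2 and -0.06 to 0.07 with a replicate left out.

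The replicate numbers share no stated source, so a fit with the replicate block is only an alternative. Same-numbered libraries had correlated deviations (r = 0.238 over 4009 genes, a description). With the block, 28 genes rose in the lawn, 27 at saturation, 26 at 4 h and 21 at 1 h, 6 were higher in the lawn than at saturation, and 2 were higher at 4 h than at 1 h, ATG1 being added (1.57, adjusted p = 0.00406). ATG42 in the lawn, ATG5 and ATG19 at saturation, ATG17 at 4 h, ATG26 and ATG15 at 1 h and ATG3 between the lawn and saturation were also added. The calls of ATG21 in the lawn and of SNX4 at 1 h were lost, and outside the 39 those of MON1 in the lawn and at 4 h. The lawn, saturated replicate 2 and log-phase replicate 2 had the fewest reads, which limits what can be said of ATG10, ATG12 and the ATG38 intron. In log-phase replicate 2 ATG39 had 10 reads, ATG14 and ATG16 15 each, ATG8 16 and ATG12 17. The changes of these genes against log phase therefore rest in part on few reads.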
